A study of Mus musculus with 4 samples.

Results

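The Wnt ligands, receptors and secreted inhibitors are 40 mouse genes, taken by name: 19 Wnt ligands, 10 Frizzled receptors, the coreceptors Lrp5 and Lrp6, and 9 secreted inhibitors, namely 4 Dickkopf genes, 4 secreted Frizzled-related genes and Wif1. All 40 were found among the 21631 protein-coding genes of the RefSeq table for chromosomes 1 to 19 and X. A member's window was its gene body with 10 kb on either side. The windows held 150 distinct open regions of the 76437 called in the knockout DN3 library, and 146 of 76814 in the control DN3 library. They held 75 of 51297 in the knockout naive library and 65 of 46576 in the control naive library.

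The assay was ATAC-seq, in which the Tn5 transposase cuts accessible DNA, so that regions of open chromatin gather sequenced fragments. DN3 thymocytes, the early T cell stage that carries neither CD4 nor CD8 and that rearranges the T cell receptor beta gene, were enriched from mouse thymus by depleting lineage and CD4 positive cells on magnetic beads and then flow sorted as Lin-CD4-CD8-CD44-Cd25+. Naive CD4 T cells, mature cells that circulate before any contact with antigen, were taken from spleen with a magnetic bead kit. Each cell type came from Scd1-deficient mice, whose missing enzyme, a stearoyl-CoA desaturase, puts a double bond into saturated fatty acids, and from their littermates as controls. The 4 groups, knockout DN3, control DN3, knockout naive and control naive, had 1 library each of untreated primary cells. The labels give no strain, age, sex or number of animals, and do not say what was deleted or in which cells. The control titles hold the letters HZ, left unexplained in the labels.

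Wnt proteins are lipid-modified secreted signals. They bind a Frizzled receptor together with the coreceptor Lrp5 or Lrp6 and so spare beta-catenin from destruction. Beta-catenin then joins TCF and LEF factors on DNA, of which Tcf7 (TCF-1) and Lef1 are needed for early thymocyte development. Secreted Frizzled-related proteins and Wif1 bind the ligands, and Dkk1, Dkk2 and Dkk4 bind the coreceptors, so that both kinds of inhibitor act outside the cell. Open chromatin at a gene end is a state of the DNA and was not measured here as expression.

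With 1 library per group no difference has a replicate check, no test was run, and the Wilson 95% intervals below cover counting error only. For a count of 0 the share said to be allowed is 3 counts over the number examined, which is not a Wilson bound. A region open in a few cells and a region weakly open in all cells cannot be told apart in such bulk libraries. Scd1 itself had a region at a gene end in all 4 libraries, and since the deleted segment is not given, this checks no label. Of 10 DN3 markers, 10 had a gene-end region in each DN3 library, against 7 in the knockout naive and 6 in the control naive library, with Ptcra, Rag2 and Dntt open at a gene end in the DN3 libraries alone. All 10 naive CD4 markers had one in all 4 libraries (all genes 56.1%). Of all protein-coding genes, 66.5% and 66.7% had one in knockout and control DN3 cells. In knockout and control naive cells 58.6% and 57.0% of all genes had one, and the marker counts are to be read beside these shares. Of 6 thymic epithelial markers, 4 and 5 had one in the knockout and control DN3 libraries and 2 in each naive library. Of 8 fibroblast and endothelial markers the counts were 4 and 4 in DN3 and 3 and 2 in naive cells, and of 6 myeloid and dendritic markers 3 and 2 in DN3 and 2 and 2 in naive cells. Among the myeloid markers, Itgam was called in both naive and neither DN3 library (−log10 q, the caller's corrected significance, 33.4 in knockout and 42.3 in control naive cells), Lyz2 in both DN3 and neither naive library (32.6 in knockout and 28.5 in control DN3 cells) and Itgax in knockout DN3 cells alone (15.5). The B cell gene Cd79a had −log10 q of 3.36 in knockout DN3 cells, no region in control DN3 cells, and 53.8 and 54.5 in knockout and control naive cells. Krt5, Col3a1, Dcn, Pecam1, Csf1r and Adgre1 had none in any library, whereas Krt8 and Foxn1 had one in both DN3 and neither naive library. The part of other cells in the results that follow was not tested.

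The bases before a RefSeq start are shown for 6 members, so that the 3 kinds of call at a start can be read beside the DNA they fall on. Fzd7 and Wif1 had a region there in all 4 libraries, Fzd1, Dkk1 and Wnt4 in both DN3 and neither naive library, and Wnt2 in none. Each sequence is the 250 bases before the start, 5′ to 3′ on the gene's strand, from RefSeq for GRCm38.p6, the assembly of mm10. Capitals mark CG dinucleotides, the sites of DNA methylation that cluster in CpG islands. They lie at chr1:59481897-59482146 (plus strand) for Fzd7, chr10:121033754-121034003 (plus strand) for Wif1, chr5:4758217-4758466 (minus strand) for Fzd1, chr19:30549497-30549746 (minus strand) for Dkk1, chr4:137277385-137277634 (plus strand) for Wnt4 and chr6:18030446-18030695 (minus strand) for Wnt2.
Fzd7: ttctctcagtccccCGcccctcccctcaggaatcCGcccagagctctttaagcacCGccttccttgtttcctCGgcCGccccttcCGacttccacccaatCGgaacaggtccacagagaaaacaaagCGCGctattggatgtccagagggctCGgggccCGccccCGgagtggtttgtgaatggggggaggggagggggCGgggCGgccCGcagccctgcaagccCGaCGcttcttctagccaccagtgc
Wif1: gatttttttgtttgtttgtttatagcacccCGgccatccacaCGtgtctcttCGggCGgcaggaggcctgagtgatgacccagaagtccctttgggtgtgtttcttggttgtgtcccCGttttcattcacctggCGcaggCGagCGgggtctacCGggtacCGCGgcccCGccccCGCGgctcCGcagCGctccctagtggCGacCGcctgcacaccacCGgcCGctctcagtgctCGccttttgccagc
Fzd1: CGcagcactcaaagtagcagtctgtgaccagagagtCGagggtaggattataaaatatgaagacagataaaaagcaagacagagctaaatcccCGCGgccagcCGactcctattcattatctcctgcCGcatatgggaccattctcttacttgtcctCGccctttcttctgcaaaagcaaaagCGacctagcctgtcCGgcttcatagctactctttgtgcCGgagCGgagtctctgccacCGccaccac
Dkk1: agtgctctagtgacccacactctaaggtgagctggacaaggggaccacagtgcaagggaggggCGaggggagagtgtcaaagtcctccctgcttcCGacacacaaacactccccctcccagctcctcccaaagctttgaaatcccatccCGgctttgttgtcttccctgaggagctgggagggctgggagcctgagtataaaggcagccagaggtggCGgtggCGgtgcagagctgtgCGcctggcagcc
Wnt4: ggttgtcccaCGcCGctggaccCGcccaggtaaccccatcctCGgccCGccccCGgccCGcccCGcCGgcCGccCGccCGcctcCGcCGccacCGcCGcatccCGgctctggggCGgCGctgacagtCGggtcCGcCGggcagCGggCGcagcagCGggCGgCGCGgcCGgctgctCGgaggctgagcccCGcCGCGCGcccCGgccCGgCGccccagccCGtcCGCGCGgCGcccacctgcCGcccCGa
Wnt2: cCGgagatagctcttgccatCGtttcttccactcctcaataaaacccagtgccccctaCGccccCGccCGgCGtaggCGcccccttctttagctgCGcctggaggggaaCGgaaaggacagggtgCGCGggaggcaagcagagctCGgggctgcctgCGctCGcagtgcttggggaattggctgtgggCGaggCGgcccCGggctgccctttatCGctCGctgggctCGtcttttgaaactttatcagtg
The number of CG dinucleotides in these 250 bases was 17 in Fzd7, 21 in Wif1, 12 in Fzd1, 6 in Dkk1, 44 in Wnt4 and 20 in Wnt2. The order of the counts is not that of the calls. Wnt4, with the most, was called in DN3 cells alone, and Wnt2, with nearly as many as Wif1, was called in no library.

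A gene-end region is a region that overlaps the 1 kb on either side of an annotated end of the gene. In the full lists nearly every member had one in DN3 cells, which was not so in naive cells. The knockout DN3 library had gene-end regions at 37 of 40 members (92.5%, interval 80.1 to 97.4), where 66.5% of all protein-coding genes had one. The control DN3 library had them at 36 (90.0%, 76.9 to 96.0), where 66.7% of all genes had one. The knockout naive library had them at 23 members (57.5%, 42.2 to 71.5), against 58.6% of all genes, and the control naive library at 21 (52.5%, 37.5 to 67.1), against 57.0%. The members' share thus lay above the background in both DN3 libraries and near it in both naive libraries.

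By the combination of calls, 21 members were open at a gene end in all 4 libraries (52.5%, all genes 56.1%). Another 13 were open in both DN3 and neither naive library (32.5%, 20.1 to 48.0, all genes 7.57%). None was open in both naive and neither DN3 library, which allows a share of up to 7.5% (all genes 0.347%). Wnt2, Wnt5a and Dkk2 were open in no library (3 of 40, 7.5%, all genes 31.8%) and had no region anywhere in their windows. The other 3 members, Fzd6, Dkk4 and Sfrp1, had another combination (all genes 4.21%). Between the cell types of the same genotype, 14 members had a gene-end region in knockout DN3 and not in knockout naive cells (35.0%, all genes 8.53%) and 0 the reverse (all genes 0.587%). In the controls 15 had one in DN3 and not in naive cells (37.5%, all genes 10.3%) and 0 the reverse (all genes 0.624%).

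**Figure D1:**
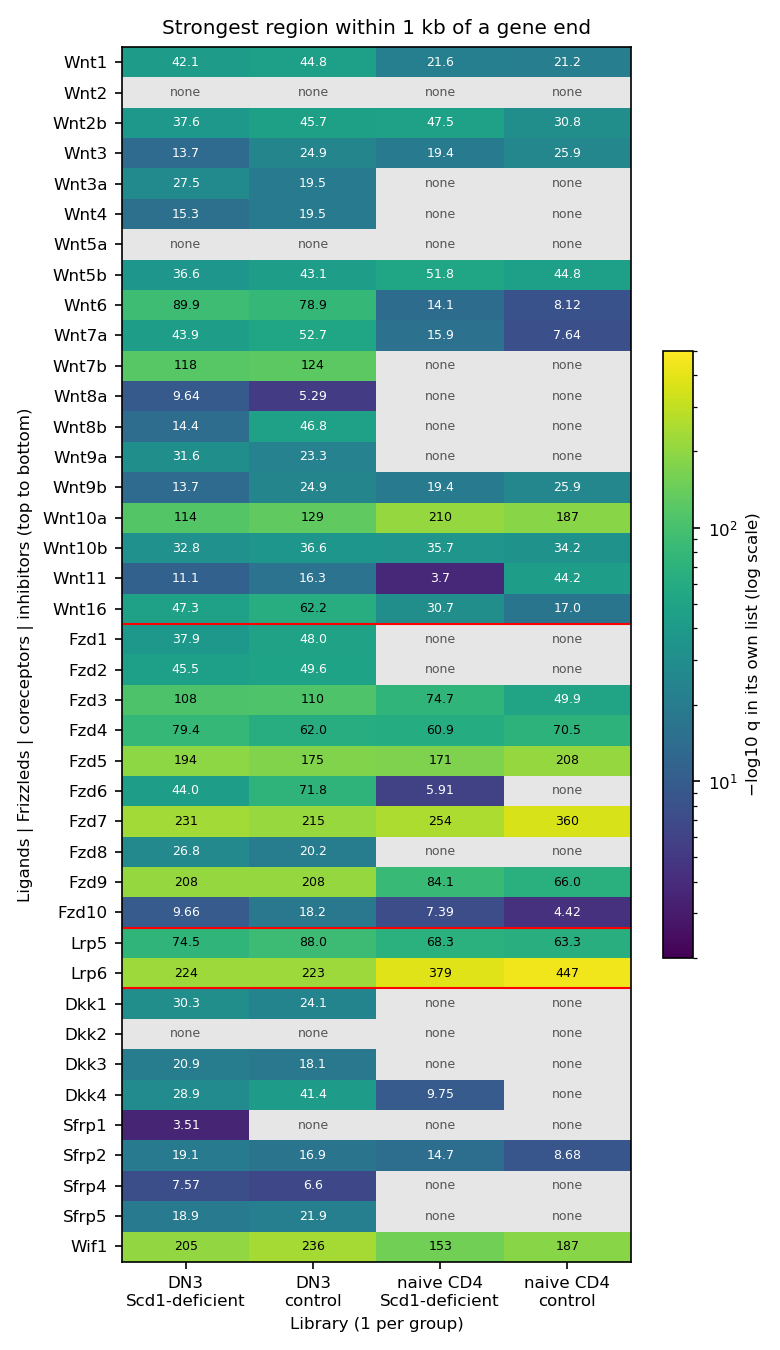
Strength of the strongest gene-end region of each of the 40 members (rows) in each of the 4 libraries (columns), as the deposited −log10 q on a logarithmic colour scale, with grey for no region. Ligands, Frizzled receptors, coreceptors and inhibitors run from top to bottom, parted by red lines. Grey cells stand mainly in the naive columns, where 23 and 21 members had a region against 37 and 36 in the DN3 columns.

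Among the 19 ligands, 11 were open at a gene end in all 4 libraries, 6 in both DN3 and neither naive library, and 2, Wnt2 and Wnt5a, in none. The values below are the authors' own: the fold is the fragment pileup at the summit over the local background of that library, and −log10 q also grows with depth. Both were read within a library or set side by side without a test.

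Wnt3a, a ligand that stabilises beta-catenin in many cell types, lies at chr11:59248036-59290751. Its strongest gene-end region, at the end where transcription finishes, had a fold of 8.4 in knockout DN3 and 6.5 in control DN3 cells and no counterpart in either naive library. At its start the control DN3 library alone had 2 weak regions, with folds of 2.38 and 2.02. Wnt4, which acts in kidney and gonad development, lies at chr4:137277635-137299501. The region over its start had a fold of 5.47 in knockout DN3 and 5.8 in control DN3 cells, with −log10 q of 15.3 and 19.5, and none was called in naive cells. The only naive region in its window lay in the flank, with folds of 8.84 in knockout naive and 8.81 in control naive cells, and was open in DN3 cells too. Wnt9a, a ligand of joint and limb development at chr11:59306849-59333552, had folds of 5.53 and 4.39 at its start in knockout and control DN3 cells and none in naive cells. In these 3 ligands the call at the gene end was thus present in both genotypes of DN3 cells and in neither of naive cells.

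Wnt7b and Wnt8b carry a limit. At Wnt7b (chr15:85535437-85581821), a ligand of lung development, the DN3 gene-end region had folds of 10.6 in knockout and 9.69 in control cells. Narrower naive regions, with folds of 7.74 and 9.32 in knockout and control, overlapped it but began at 85583200 and 85583162, more than 1 kb from the gene's end. At Wnt8b (chr19:44493472-44514273), a ligand of the developing forebrain, the DN3 folds at the finishing end were 3.34 in knockout and 5.69 in control cells. In control DN3 cells it was 1 region of 3121 bp, in knockout DN3 cells a region of 713 bp beside a separate body region with a fold of 6.57. The naive regions, with folds of 8.11 in knockout and 6.52 in control cells, stopped at 44512216 and 44512230 in the gene body and overlapped the knockout DN3 body region and the wide control DN3 region, but not the knockout DN3 region at the end. At Wnt7b, and at Wnt8b in the controls, the calls thus differed in how far a region reached, and for the other 11 members no naive region overlapped the DN3 one. Wnt8a, the sixth ligand of this kind, had folds of only 4.4 in knockout DN3 and 3.18 in control DN3 cells. Its 2 DN3 regions were also near the weak end of their lists, at percentiles 4.68 and 1.66 of all genes' gene-end regions.

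The 11 ligands open at a gene end everywhere were uneven in strength. Wnt10a, known for its part in teeth and skin appendages, had the highest −log10 q of all ligands in each naive library and in the control DN3 library, with 114 in knockout DN3, 129 in control DN3, 210 in knockout naive and 187 in control naive cells. Its folds were 7.26, 7.37, 8.75 and 6.71 in the same order, so the cell types overlapped. Wnt6, its neighbour on chromosome 1, differed. The region at its finishing end had folds of 9.69 in knockout DN3, 8.22 in control DN3, 4.86 in knockout naive and 3.62 in control naive cells, with both DN3 values above both naive values. The region at its other annotated end, with folds of 11.8 and 10.1 in knockout and control, was called in DN3 cells alone. The RefSeq start of Wnt6, at 74771892, is inside the gene body. The merged region over it, chr1:74771674-74773544, was open in all 4 libraries. Its strongest folds were 9.2 in knockout DN3, 7.47 in control DN3, 7.64 in knockout naive and 6.54 in control naive cells, so the cell types overlapped there.

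Wnt7a, a ligand of limb patterning, had folds of 7.03 in knockout DN3, 7.01 in control DN3, 6.66 in knockout naive and 4.09 in control naive cells. Wnt16 had 10.1 in knockout DN3, 11.1 in control DN3, 8.82 in knockout naive and 6.05 in control naive cells. In both ligands each DN3 value exceeded each naive value. Wnt1, the founding member of the family, had 2 regions at its ends that went opposite ways. At chr15:98790768-98793619 the folds were 5.29 in knockout DN3, 5.05 in control DN3, 3.33 in knockout naive and 4.01 in control naive cells, and at chr15:98789425-98790193, over its start, 2.24, 2.66, 4.37 and 3.7 in the same order. Wnt2b and Wnt5b had both naive values on top. Wnt5b had folds of 5.41 in knockout DN3, 5.91 in control DN3, 8.96 in knockout naive and 6.68 in control naive cells. Wnt2b had 4.9, 4.75, 7.17 and 5.02 in that order of libraries. Its summits lay at positions -69, -1803, -104 and -101 from the start in the same order. The control DN3 value of Wnt2b therefore belongs to another place than the rest. Wnt10b, a ligand that restrains fat cell formation, had 3.57, 3.58, 3.86 and 3.33, with the cell types overlapping.

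Wnt3 and Wnt9b lie on opposite strands with overlapping annotated ends and share the region at chr11:103771374-103774597, so their gene-end values are the same measurement. The strongest fold within that region was 4.52 in knockout DN3, 5.67 in control DN3, 6.33 in knockout naive and 5.88 in control naive cells, with both naive values on top. In the knockout naive library the part that reaches the gene ends was called as a region of its own, with a fold of 5.46. At Wnt9b, whose product induces kidney tubules, the annotated RefSeq start is inside the gene body. The region there had folds of 8.52 in knockout DN3 and 8.55 in control DN3 cells and was called in neither naive library. Wnt11, which acts largely without beta-catenin, had 2.56 in knockout DN3, 2.84 in control DN3, 2.13 in knockout naive and 5.06 in control naive cells. Its gene-end region in the control naive library was 3096 bp wide, against 403 bp in the knockout naive library, and had its summit 2957 bp after the start. The 5.06 therefore belongs to another place than the rest. A wider merged region, chr7:98834718-98839397, was open in all 4. Its strongest folds were 5.92 in knockout DN3, 5.03 in control DN3, 6.9 in knockout naive and 5.06 in control naive cells, with the cell types overlapping.

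All 10 Frizzled genes were open at a gene end in both DN3 libraries, and 6 of them in all 4. Fzd1, Fzd2 and Fzd8 were the receptors called in DN3 cells alone. Fzd1 (chr5:4753839-4758216) had a fold of 6.57 with 80 fragments at the summit in knockout DN3 cells and 7.18 with 95 fragments in control DN3 cells. Fzd2 (chr11:102604431-102608058) had a fold of 8.65 with 77 fragments in knockout DN3 and 8.45 with 86 fragments in control DN3 cells. Fzd8 (chr18:9212856-9216201) had 7.78 with 47 fragments in knockout DN3 and 6.31 with 42 fragments in control DN3 cells. None of the 3 had any naive region within 10 kb of the gene. Fzd1 and Fzd2 belong with Fzd7 to the same Frizzled subfamily, and Fzd8 with Fzd5 to another, yet Fzd7 and Fzd5 were open in all 4 libraries.

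Fzd7 had folds of 8.91 in knockout DN3, 8.36 in control DN3, 10.6 in knockout naive and 10.7 in control naive cells. Fzd5 had 7.39, 6.81, 7.51 and 6.95 in that order. Thus within each subfamily a member open in every library stood beside members called in DN3 cells alone. Fzd9 had folds of 10.5 in knockout DN3, 10.8 in control DN3, 10.9 in knockout naive and 9.17 in control naive cells, but its −log10 q was 208 in each DN3 library against 84.1 and 66.0 in knockout and control naive cells. Fzd4, which also binds the ligand Norrin, had folds of 8.01, 6.92, 8.43 and 8.38 over the same libraries, at an end within 1 kb of that of Tmem135. Fzd3, a receptor of axon guidance and planar cell polarity, had 10.6, 10.1, 12.5 and 9.77. Fzd3 and Fzd9 did not separate the cell types by fold, and at Fzd4 both naive values stood above both DN3 values.

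Fzd10 was weak in every library, with folds of 4.41 in knockout DN3, 6.05 in control DN3, 4.51 in knockout naive and 3.27 in control naive cells. Fzd6, like Fzd3 a planar cell polarity receptor, had 8.82 in knockout DN3, 10.8 in control DN3 and 4.08 in knockout naive cells and no region in control naive cells. Its knockout naive region held 18 fragments at the summit, where the weakest region on the lowest background of that list held 11. The coreceptors were open throughout. Lrp6 had the strongest gene-end region of all members in both naive libraries, with −log10 q of 379 and 447 in knockout and control, beside 224 and 223 in DN3 cells, and folds of 11.6, 11.3, 12.6 and 11.8 over the 4 libraries. Lrp5, a regulator of bone mass, had folds of 6.61 in knockout DN3, 7.05 in control DN3, 9.53 in knockout naive and 8.36 in control naive cells.

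Of the 9 secreted inhibitors only Wif1 and Sfrp2 were open at a gene end in all 4 libraries. Wif1 had the highest gene-end fold of the 40 members in each library, at 13 in knockout DN3, 13.6 in control DN3, 13.4 in knockout naive and 13.1 in control naive cells. Its summits lay at positions -35 and -32 from the start in knockout and control DN3 cells and at -96 and -97 in knockout and control naive cells. Sfrp2 had low folds of 3.89, 3.62, 4.73 and 3.64 over the same libraries. Neither inhibitor separated DN3 from naive cells by fold.

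Dkk1, Dkk3, Sfrp4 and Sfrp5 were open at a gene end in both DN3 and neither naive library. Dkk1 (chr19:30545876-30549496), the best studied inhibitor of the coreceptors, had folds of 7.78 in knockout DN3 and 6.44 in control DN3 cells. A stronger region in its flank, at chr19:30554262-30554890, had 12.7 and 12.1 and was also called in DN3 cells alone. Dkk3 (chr7:112116019-112159482), a divergent relative of the other Dickkopf proteins, had 6.56 in knockout DN3 and 5.6 in control DN3 cells. Neither Dkk1 nor Dkk3 had a naive region in its window. Sfrp5 (chr19:42197971-42202252) had 5.53 in knockout DN3 and 5.49 in control DN3 cells at its start. Sfrp4 (chr13:19623175-19632825) had only 2.78 in knockout DN3 and 2.61 in control DN3 cells. Its regions held 45 and 44 fragments at the summit, with −log10 q of 7.57 and 6.6. Sfrp4 had the lowest folds of these 4 inhibitors.

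Dkk4 had folds of 7.82 in knockout DN3, 9.38 in control DN3 and 5.16 in knockout naive cells and no region in the control naive library. Sfrp1 had a region in the knockout DN3 library alone, with a fold of 3.11, a −log10 q of 3.51 and 16 fragments at the summit. It stood at percentile 0.802 of all gene-end regions of that list.

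The members' gene-end regions were weak for gene ends, and this bears on how the DN3-only calls are read. The median percentile of the members' −log10 q among the gene-end regions of all genes was 16.1 in knockout DN3, 17.5 in control DN3, 12.1 in knockout naive and 11.4 in control naive cells. The median fold was 6.61 against 10.3 for all genes in knockout DN3 cells, 6.47 against 10.2 in control DN3, 7.17 against 11.7 in knockout naive and 6.05 against 11.1 in control naive cells. Only 5, 4, 1 and 2 members stood above percentile 50 in those libraries. They were Fzd5 in knockout DN3 cells, Fzd7 in all but knockout naive cells, Fzd9 and Wif1 in both DN3 libraries, and Lrp6 in all 4.

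Of the 36 members open at a gene end in both DN3 libraries, 13 were open in neither naive library (36.1%, 22.5 to 52.4), where 11.5% of all such genes were. Within classes of strength in the control DN3 list the shares lay closer together. Up to percentile 20 of the control DN3 list, 12 of 23 members were called in DN3 cells alone (52.2%, 33.0 to 70.8), beside 1338 of 2661 genes (50.3%). From percentile 20 to 50 it was 1 of 9 members (11.1%, 1.99 to 43.5), Wnt7b, beside 282 of 4318 genes (6.53%). Above percentile 50 it was 0 of 4 members, beside 17 of 7217 genes (0.236%). The members' excess of DN3-only calls was therefore found with an excess of weak gene-end regions. Within each class the members' interval held the share of all genes. The weakest class was wide, with −log10 q from 1.75 to 53.5 in the control DN3 list. Strength was not matched inside a class, so the classes cannot show whether a gap remains.

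**Figure D2:**
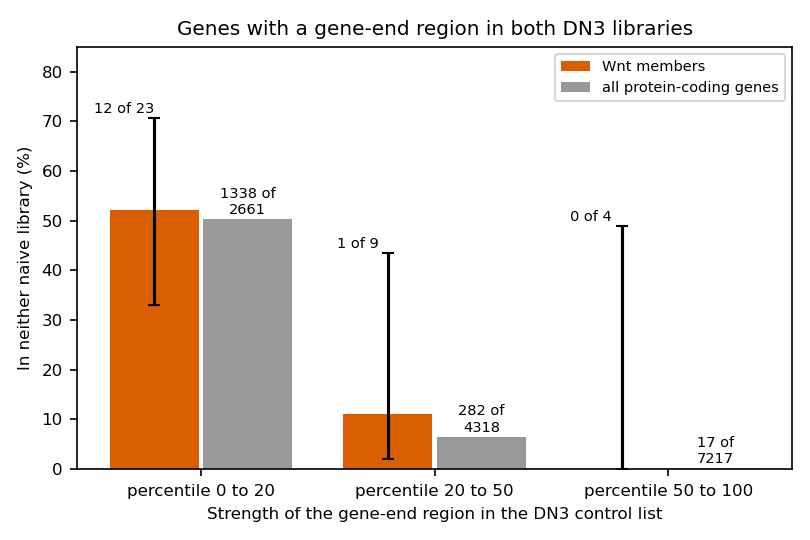
Share of genes called at a gene end in neither naive library, among genes called in both DN3 libraries, by the strength percentile of the gene-end region in the control DN3 list. Orange bars are members with Wilson 95% intervals, grey bars are all protein-coding genes, and counts stand above. In the weakest class 12 of 23 members and 1338 of 2661 genes were called in DN3 cells alone.

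In all 13 members the folds of both DN3 libraries, 2.61 to 10.6, lay above 2.58 and 2.45. Those were the folds of the weakest regions on the lowest background of the knockout and control naive lists. In the knockout and control DN3 lists, which had called all 13, the like folds were 2.37 and 2.45. The result was thus largely fixed in advance. It does not show whether naive regions of such folds would have been called at these places. The lowest background itself was 4.47 and 4.72 fragments in knockout and control DN3 cells and 3.65 and 5.12 in knockout and control naive cells. With each list held to its 46576 strongest regions, 6 members were open in DN3 cells alone (15.0%, all genes 3.85%), namely Wnt7b, Wnt9a, Fzd1, Fzd2, Fzd6 and Dkk1, and 2, Fzd10 and Sfrp2, in naive cells alone (all genes 1.45%). Of the 13 members, 5 thus remained when the lists were of equal length. Among these, Wnt7b had naive regions in the full lists that overlapped its DN3 gene-end region, as described above.

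Across their whole windows the members had more regions in DN3 than in naive cells. In the knockouts 28 members had more regions in DN3 cells (70.0%, all genes 45.7%), 12 as many and 0 fewer (all genes 8.09%). In the controls 30 had more (75.0%, all genes 50.4%), 9 as many and 1, Wnt2b, fewer (2.5%, all genes 6.17%). The share with more regions in DN3 cells was thus above that of all genes in both genotypes. It was not compared at like strength. A count of regions also depends on where a list splits them. At Wnt2b 1 control DN3 region of 2947 bp overlapped control naive regions called apart, and every region of that window was open in all 4 libraries. Of the 150 regions in knockout DN3 cells 45 lay at a gene end, 63 in a gene body and 42 in a flank, and of the 75 in knockout naive cells 23, 27 and 25. The control libraries split alike, with 44, 60 and 42 in DN3 and 22, 23 and 20 in naive cells. Up to 10 of these regions per library lay within 1 kb of an end of another gene, such as Arf3 beside Wnt10b, Ppp6r3 beside Lrp5, Fbxl14 within Wnt5b, Prkag3 beside Wnt6 and Epdr1 beside Sfrp4, and cannot be assigned to the member.

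**Figure D3:**
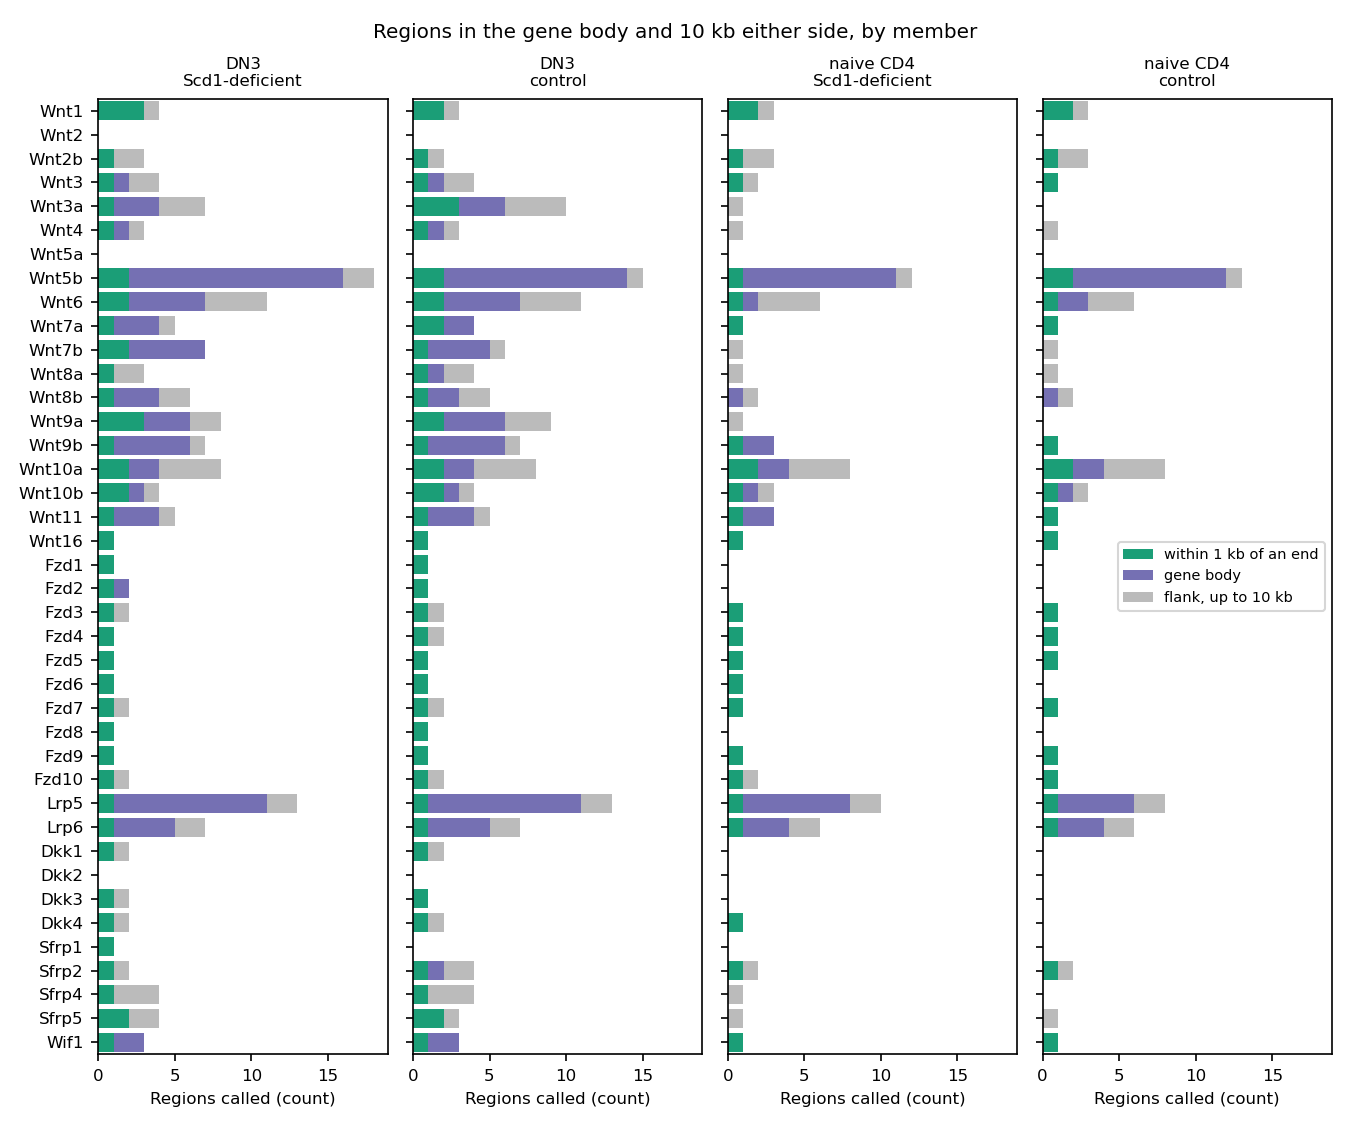
Number of regions in each member's window in the 4 libraries, split into regions within 1 kb of an end (green), in the gene body (violet) and in the flank up to 10 kb (grey). Bars start at 0. Wnt5b has the most in every library, and Wnt2, Wnt5a and Dkk2 have none.

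Of the knockout DN3 regions in the windows, 73 of 150 had no overlapping region in knockout naive cells (48.7%, 40.8 to 56.6), where 40.6% in the windows of all genes had none. In the controls it was 78 of 146 (53.4%, 45.3 to 61.3), against 44.4%. In the other direction 0 of 75 knockout naive regions lacked a DN3 counterpart, which allows up to 4.0% (all genes 14.8%), and 0 of 65 control naive regions, which allows up to 4.62% (all genes 13.8%). So every naive region near a Wnt member was also open in DN3 cells of the same genotype. With lists of equal length that was no longer so: 22.5% of knockout naive and 16.9% of control naive regions then lacked a counterpart, against 25.6% and 28.0% for all genes. The DN3 shares were then 31.2% in knockout and 37.6% in control cells, against 25.2% and 27.1% for all genes.

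Merged over the 4 lists, the windows held 154 regions. Of these 62 were called in all 4 libraries (40.3%, all genes 44.2%), 54 in both DN3 and neither naive library (35.1%, 28.0 to 42.9, all genes 26.6%) and 0 in both naive and neither DN3 library (up to 1.95%, all genes 4.77%). With a region counted once in each gene's window that holds it, the DN3-only regions were 16 of 48 at the members' ends (33.3%, all genes 13.9%), 26 of 64 in their bodies (40.6%, all genes 30.5%) and 12 of 49 in their flanks (24.5%, all genes 21.9%). Those called in all 4 libraries were 25 at the ends (52.1%, all genes 74.7%), 22 in the bodies (34.4%, all genes 34.8%) and 20 in the flanks (40.8%, all genes 50.8%). The gap to all genes in the DN3-only share was widest at gene ends.

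Wnt3a and Wnt9a, which are neighbours on chromosome 11 and run away from each other, differed along their whole length. The knockout DN3 library had 7 regions in the window of Wnt3a and 8 in that of Wnt9a, and the control DN3 library 10 and 9. The knockout naive library had 1, shared by both windows, with a fold of 3.65 and 16 fragments, and the control naive library 0. The strongest region, chr11:59293613-59294323, lies upstream of the Wnt3a start and had folds of 9.97 in knockout DN3 and 8.22 in control DN3 cells, with −log10 q of 144 and 128. Inside Wnt9a, chr11:59330365-59331336 had folds of 10.4 and 11.7 in knockout and control DN3 cells. Neither was called in naive cells, although their −log10 q in DN3 cells was above that of every gene-end region of the 2 genes.

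Wnt5b (chr6:119432531-119544824), a ligand that acts largely without beta-catenin, stood at the other end. Its window held 18 regions in knockout DN3, 15 in control DN3, 12 in knockout naive and 13 in control naive cells. The region chr6:119478747-119481203 had folds of 7.1, 7.22, 7.16 and 6.19 in that order, and lies at the end of Fbxl14 inside the gene. A further pair of body regions kept high folds in all libraries: chr6:119508322-119510033 with 11.6, 12.4, 9.98 and 8.74, and chr6:119521450-119522920 with 11, 9.8, 12.1 and 9.55. Only chr6:119485544-119486203, with folds of 4.74 and 6.24 in knockout and control DN3 cells, was open in both DN3 and neither naive library here.

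**Figure D4:**
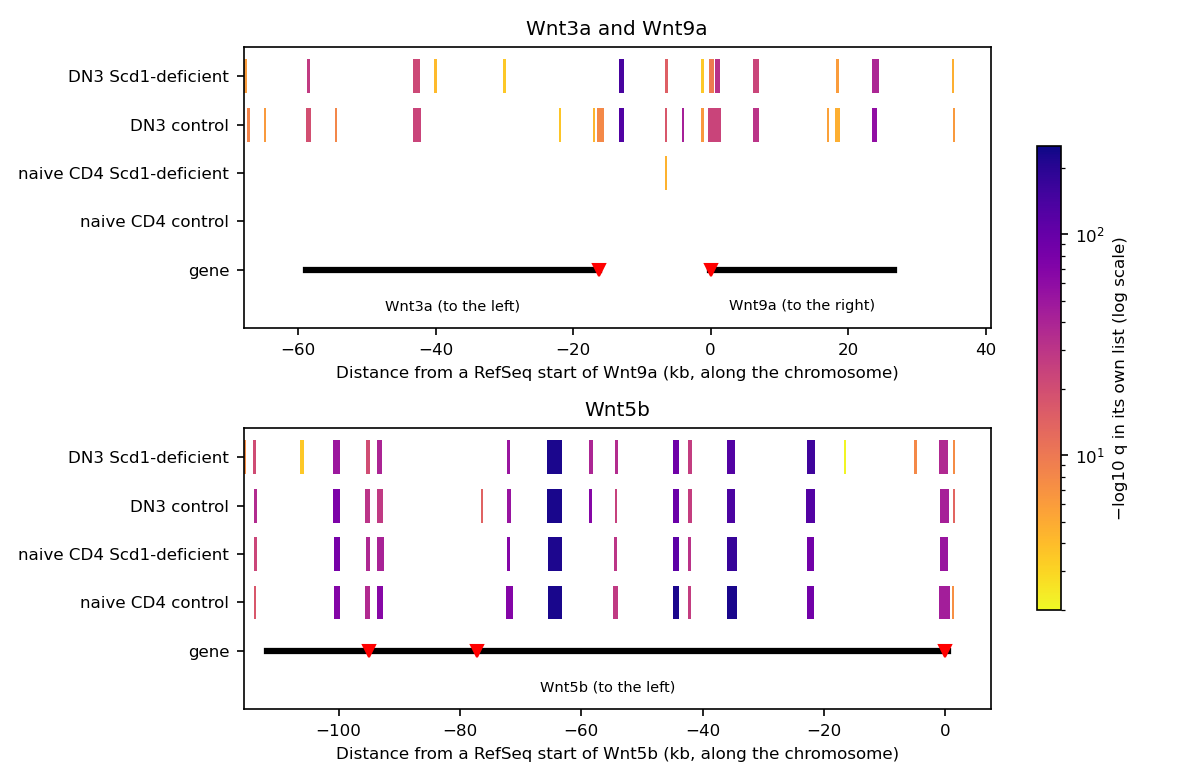
Regions along Wnt3a and Wnt9a (top) and Wnt5b (bottom) in the 4 libraries, by distance from a RefSeq start in kb along the chromosome, coloured by −log10 q on a logarithmic scale. Black bars are gene bodies and red triangles RefSeq starts. The naive rows of the upper map hold 1 region in knockout and 0 in control cells, and those of the lower map hold 12 and 13.

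Other members with at least 5 regions also carried DN3-only regions in the gene body. Wnt7a had 5 and 4 regions in knockout and control DN3 cells and 1 in each naive library. Its body region chr6:91385905-91386583 had folds of 14.4 and 14.2 in knockout and control DN3 cells, above that of its own start, and none in naive cells. Wnt9b had 7 regions in each DN3 library, 3 in knockout naive and 1 in control naive cells. Its body region chr11:103738597-103740029 had a fold of 10.3 in each DN3 library and none in naive cells. Wnt6 had 11 regions in each DN3 library and 6 in each naive library. Its body region chr1:74763005-74763555, which lies upstream of its RefSeq start, had 12.4 in each DN3 library alone. At these 3 ligands the DN3-only body region named had a higher fold than any gene-end region of the gene.

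Wnt8b had 6 and 5 regions in knockout and control DN3 cells and 2 in each naive library. The region in its flank, chr19:44487268-44487957, had the highest fold of any region in the members' windows in each DN3 library, with 20.6 in knockout and 18.2 in control cells, and had 10.5 in knockout naive and 6.54 in control naive cells. Both DN3 folds there were above both naive folds. Wnt7b had 7 and 6 regions in knockout and control DN3 and 1 in each naive library, and Wnt11 5 in each DN3 library, 3 in knockout naive and 1 in control naive cells. Wnt10a had 8 regions in each of the 4 libraries, all 8 shared. Lrp5 had 13 in each DN3 library, 10 in knockout naive and 8 in control naive cells, and Lrp6 had 7 in each DN3 and 6 in each naive library. At Lrp6 the body region chr6:134532877-134533686 had folds of 15.8, 17.2, 14.8 and 14 over the 4 libraries. The 2 coreceptors thus shared most of their regions between the cell types.

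Between the genotypes the members differed little. At gene ends 1 member, Sfrp1, was called in knockout and not in control DN3 cells (all genes 0.911%), and 0 in control and not in knockout DN3 cells (all genes 1.11%). In naive cells 2, Fzd6 and Dkk4, were called in the knockout and not in the control (all genes 1.93%), and 0 the reverse (all genes 0.37%). These regions of Sfrp1, Fzd6 and Dkk4 held 16, 18 and 23 fragments at the summit, where the weakest regions on the lowest background of their lists held 12 in knockout DN3 and 11 in knockout naive cells. In DN3 cells 10 members had more regions in the knockout than in the control (25.0%, all genes 16.3%), 25 as many and 5 fewer (12.5%, all genes 16.8%). In naive cells 10 had more (25.0%, all genes 20.4%), 29 as many and 1 fewer (2.5%, all genes 5.66%), in lists of 51297 regions in the knockout and 46576 in the control.

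Of all window regions, 13 of 150 in knockout DN3 cells had no counterpart in control DN3 cells (8.67%, 5.13 to 14.3, all genes 9.01%), and 16 of 146 the reverse (11%, 6.86 to 17.1, all genes 9.83%). In naive cells it was 9 of 75 in the knockout (12%, 6.44 to 21.3, all genes 11.9%) and 1 of 65 in the control (1.54%, 0.272 to 8.21, all genes 5.63%). Each interval held the background share. The strongest knockout-only DN3 regions were in the flank of Wnt7a (−log10 q 14.0, fold 4.06), in the flank of Sfrp5 (11.3, fold 4.65) and in the body of Wnt5b (7.78, fold 2.97). The strongest control-only DN3 regions were 222 bp in the flank of Wnt9a (43.2, fold 5.24, with 114 fragments), in the body of Wnt5b (14.0, fold 5) and in the body of Wnt3a (8.21, fold 4.07). Apart from that at Wnt9a they lay below the median −log10 q of their lists, 30.5 and 33.8 in knockout and control DN3 cells. In naive cells the strongest knockout-only regions were in the body of Wnt9b (14.0, fold 6.23), at the end of Dkk4 (9.75, fold 5.16) and near Sfrp4 at the end of Epdr1 (8.94, fold 4.94), all of which were also open in both DN3 libraries. The only control-only naive region lay at the start end of Wnt5b (7.15, fold 2.88).

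In the 21 members open at a gene end everywhere, the folds were set beside those of the 12131 genes of that kind. The median log2 ratio of knockout to control was 0.00 in DN3 cells, with a range of -0.46 (Fzd10) to 0.52 (Wnt6) and 0.03 for all such genes. In naive cells it was 0.21, with a range of -1.25 (Wnt11) to 0.70 (Wnt7a), 17 of 21 members above 0, and 0.11 for all such genes, of which 83.4% were above 0. The median log2 ratio of DN3 to naive was -0.11 in the knockouts and -0.01 in the controls, beside -0.10 and -0.02 for all such genes. Wnt6 had the highest in both, at 1.28 and 1.18. The strongest gene-end region of Wnt6 lay at its lower-coordinate end in knockout DN3 cells and at its finishing end in the other libraries. Its 1.28 and 0.52 thus compare different ends, whereas its 1.18 in the controls compares the same end. The region of Wnt11 was far narrower in knockout than in control naive cells, so its -1.25 does not compare like regions either. The members' medians stood close to those of all genes open everywhere.

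A strand and RefSeq start were at hand for 26 members, with 29 starts. A region within 1 kb of a start was called in all 4 libraries for 16 of 26 members (61.5%, all genes 57.1%), in both DN3 and neither naive library for 6 (23.1%, all genes 6.67%), namely Wnt4, Wnt9a, Wnt9b, Fzd1, Dkk1 and Sfrp5, and in no library for 3 (11.5%, all genes 32.6%), Wnt2, Wnt8b and Dkk2. The strongest region's summit lay within 500 bp of the start for 17 of 22 members in knockout DN3 cells, 15 of 23 in control DN3, 12 of 16 in knockout naive and 9 of 16 in control naive cells. Wnt5a, Wnt7b, Wnt8a, Wnt10a, Fzd2, Fzd3, Fzd6, Fzd8, Lrp5, Lrp6, Dkk3, Dkk4, Sfrp1 and Sfrp4 were not among the 26.

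The members' starts were rich in CG dinucleotides. Over the 300 bases around each start, from 250 before to 50 after, the median count was 26.0 in the 29 member starts and 13.0 in all 21045 starts, and the median GC content 66.7% and 56.7%. Starts called in all 4 libraries had a median of 28.5 in members against 21.0 in all genes, those called in DN3 cells alone 22.5 against 14.0, and those called in none 11 against 3.0. Within the members the counts overlapped widely between the classes, from 7 to 53 where all 4 libraries had a region, 9 to 58 where DN3 cells alone had one and 6 to 27 where none had. Wnt9a, with 58, had the most CG dinucleotides of all member starts and was called in DN3 cells alone, as was Dkk1 with 9.

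**Figure D5:**
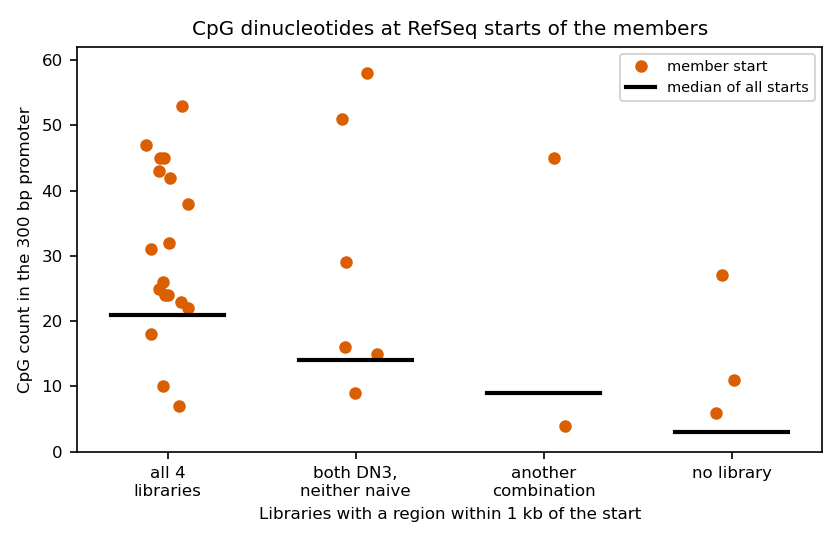
CG dinucleotides in the 300 bases around each of the 29 member starts (points), by the libraries with a region within 1 kb of the start, with the median of all starts of that class as a black bar. Points are spread sideways only to be seen. Members reach 53 among starts open in all 4 libraries and 58 among those open in DN3 cells alone.

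Short motifs were looked for on both strands of the same 300 bases. The GC box, GGGCGG, was present in 22 of 29 member starts (75.9%, all starts 46.7%). The TCF/LEF motif CTTTGNT was in 7 (24.1%, all starts 16.9%), the RUNX motif TGTGGT in 2 (6.9%, all starts 14.7%) and the ETS motif GGAAGT in 4 (13.8%, all starts 25.0%). GC boxes follow GC content, which is high in these starts, and a match is a match of letters only.

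The 45 other genes of the pathway, which act around, below or against the members, were counted by compartment. Of 21 extracellular and membrane genes, 11 were open at a gene end in all 4 libraries (all genes 56.1%). Another 6 were open in both DN3 and neither naive library (all genes 7.57%). These were Lgr5, a receptor for R-spondins, the R-spondins Rspo1, Rspo3 and Rspo4, which keep Frizzleds at the surface, and the inhibitors Frzb and Sost. Their folds were 5.82 and 6.36 in knockout and control DN3 cells for Lgr5, 5.63 and 6.26 for Rspo1 and 3.62 and 4.98 for Rspo3. In the same order Rspo4 had 3.65 and 4.72, Frzb 6.05 and 7.14 and Sost 6.75 and 6.84. Ror1 and Ryk, alternative Wnt receptors, were open in all but the control naive library, with folds of 3.65 and 4.73 in the knockout naive library. Rspo2 was called in control DN3 cells alone, and Cer1 in no library.

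Of the 22 genes that act in the cytoplasm and nucleus, 19 were open in all 4 libraries (all genes 56.1%). None, 0 of 22, was open in both DN3 and neither naive library (all genes 7.57%). The compartments were not compared at like strength of their gene-end regions. Ctnnb1, which encodes beta-catenin, had folds of 10.2 in knockout DN3, 9.79 in control DN3, 10.4 in knockout naive and 8.4 in control naive cells. Tcf7 had 4.17, 4.44, 4.05 and 3.88, and Lef1 5.56, 5.56, 5.59 and 5.16. At Tcf7 both DN3 folds stood above both naive folds, by little, and at Lef1 the cell types overlapped. Axin1 was called in control DN3 cells alone, Pygo1 in all but the control naive library and Axin2 in none. Porcn and Wls, which add the lipid to Wnt proteins and carry them to the surface, were open in all 4 libraries, and Wls had folds of 18.8 and 19.6 in knockout and control DN3 against 7.26 and 6.89 in knockout and control naive cells.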

How the data were processed

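ATAC-seq peak lists of 4 libraries, 1 per group, were analysed, grouped by the labels for genotype and cell type. The submitters' processing notes name Trimmomatic, BWA, MACS2 and the build mm10. Versions, settings, duplicate handling and any Tn5 shift were not stated there. The authors called each deposited list on its own sample. In the deposited lists the fold is the ratio of summit pileup to local background, −log10 p and −log10 q describe the summit against that same library, and the score is 10 times −log10 q cut to a whole number. These values were used to describe and rank regions within a list.

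Total read counts are not in these lists. Whole fragments at a summit were recovered from the deposited fold and −log10 p, and on 5000 regions per list lay within 0.0013 to 0.0067 of a whole number. PCR copies may be among them. Regions on chromosomes 1 to 19 and X were matched to RefSeq genes of GRCm38.p6, the assembly of mm10, by at least 1 bp of overlap. The gene table has no strand, so both annotated ends counted. Starts came from a RefSeq promoter table that held 26 of the 40 members. Percentiles rank −log10 q among the strongest gene-end regions of all genes in a list. No test was possible. The overlap counts were checked on the control DN3 list after some of its regions were removed at random. The gene-end calls were checked on planted regions and the recovery of fragments on simulated counts. These checks cover the counting only. Python 3.11.15, numpy 2.4.6, pandas 2.3.3 and scipy 1.17.1 were used.

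The members and gene lists were chosen with earlier results of these data known. All members were accounted for. The count over the B cell marker list is not reported here. Members whose call differed between libraries, members called in all 4 libraries and members with at least 5 regions were given values, as were the 3 strongest regions of 1 genotype per cell type and direction, and up to 12 pathway genes whose call differed. Other regions within a gene and the pathway genes named as open in all libraries were picked after their values were seen.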

Additional observations from a re-analysis of the deposited data

Results flagged for a closer look

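At 3 ligands the number of regions differed between the genotypes in opposite directions in the 2 cell types. The difference was not tested, since each group had 1 library. Wnt5b had 18 regions in knockout and 15 in control DN3 cells, a difference of 3, and 12 in knockout and 13 in control naive cells, a difference of -1. Wnt3a had 7 in knockout and 10 in control DN3 cells, a difference of -3, and 1 in knockout and 0 in control naive cells, a difference of 1. Wnt9a had 8 in knockout and 9 in control DN3 cells, a difference of -1, and 1 in knockout and 0 in control naive cells, a difference of 1. The naive region of Wnt3a and Wnt9a is the same one, with 16 fragments at the summit. Of the regions behind these differences, that in the flank of Wnt9a in control DN3 cells was the strongest, with 114 fragments.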

How the results depend on the processing

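Of 84 alternative values, 59 stayed close to the reported ones and 25 moved. With each list held to its 46576 strongest regions, 6 members were open at a gene end in DN3 cells alone in place of 13, and 2 in naive cells alone in place of 0. Members with a gene-end region then numbered 26 in each DN3 library, in place of 37 in knockout and 36 in control. In each naive library they numbered 21, in place of 23 in knockout and 21 in control. These counts per library are among those said to stay close. Regions called in 1 genotype only then numbered 3 of 80 in knockout DN3, 9 of 85 in control DN3 and 5 of 71 in knockout naive cells. Shares without a counterpart in the other cell type were then 31.2% in knockout DN3, 37.6% in control DN3, 22.5% in knockout naive and 16.9% in control naive cells. With the summit inside the gene-end window, 8 members were DN3-only (all genes 7.06%). At starts only, for 26 members, 22 had a region in knockout DN3 and 23 in control DN3 cells, and 6 were DN3-only. Windows of 500 bp gave 13 DN3-only members, 11 of them among the 13 reported (all genes 7.01%), windows of 2 kb gave 12, all among the 13 (7.97%), and a −log10 q of at least 5 gave the same 13 (7.44%). Regions called in 1 genotype only in knockout DN3, control DN3, knockout naive and control naive cells numbered 8 of 105, 10 of 101, 4 of 52 and 0 of 45 in gene bodies alone. Within 50 kb they numbered 25 of 291, 40 of 298, 24 of 170 and 6 of 150. With 50 kb, 5.29% of knockout naive and 6.67% of control naive regions lacked a DN3 counterpart. With −log10 q of at least 5, 5 of 136 in knockout DN3 and 10 of 136 in control DN3 cells were of 1 genotype only. Shares over all genes were not taken for these counts of 1 genotype, nor for the shares within 50 kb. Fewer regions enter under the stricter settings and more under the wider ones by construction. What depth contributed was not tested, since the lists hold no read totals. No paired analysis was possible because each group had 1 library and no fit was made.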
